A study of Homo sapiens with 4 samples.

Results

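Integrins are receptors of the cell surface, each made of an α and a β subunit, and laminins are trimers of an α, a β and a γ chain that form the core of the basement membrane. The genes of these subunits were examined in TPC1, an established human papillary thyroid carcinoma line that expresses a CCDC6-RET fusion, during treatment with the RET inhibitor BLU6864. Protein-coding rows whose symbol is ITGA with any suffix, ITGB with a digit, or LAMA, LAMB or LAMC with a digit were taken from the table, which gave 39 of 20372 genes, 38 of which are described here (27 integrin and 11 laminin rows). These carry 37 symbols, because ITGB3 is listed under 2 identifiers at overlapping positions, 1 of which had 0 counts in every library. RNA was compared between 24 h (2 libraries) and 6 h (2 libraries) of BLU6864, both grown in DMEM with 10% FBS. The labels give 100 µM of drug and single-end reads of 50 bases, whereas the methods give the dose in nM and paired-end reads. The titles of both 24 h libraries carry the note re-analysis, and those of the 6 h libraries do not. What the note marks is not stated, and a difference tied to it cannot be told apart from time. Vehicle libraries were not analysed here, so the drug and the time in culture cannot be told apart. In bulk RNA, fewer cells with a transcript and less transcript per cell cannot be told apart either. Nothing states that libraries came from separate cultures, so the P values measure only the spread between these libraries.

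The α subunit largely sets which ligand an integrin binds. The α3, α6 and α7 subunits bind laminins, α1, α2, α10 and α11 bind collagens, and α5, α8, αV and αIIb recognise the RGD sequence of fibronectin, vitronectin and latent TGFβ. The α4 and α9 subunits bind other ligands, and αD, αE, αL, αM and αX are known mainly from white blood cells. The β1 subunit serves most α subunits, β4 joins only α6, in the hemidesmosome, and β3, β5, β6 and β8 join αV. Laminins are named after their chains. The α3 and β3 chains belong to the anchoring laminin of epithelia, and laminin-511 and laminin-521 (α5 with β1 or β2, and γ1) are the common laminins of adult basement membranes.

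Total counts lay between 23917056 and 27457040 per library. Levels are given as CPM, in which every library is scaled to the same total after TMM scaling, and levels of different genes are compared only as CPM per kb of the longest protein-coding transcript. Changes are log2 fold changes of 24 h over 6 h from edgeR's quasi-likelihood test on all 12876 genes with enough counts, each with its standard error (SE) and Benjamini-Hochberg adjusted P. A gene is called higher or lower when its log2 fold change is over 0.5 or under -0.5 with an unadjusted P under 0.01. Markers of the labelled thyroid origin were only partly found. PAX8, a thyroid transcription factor, had at least 19124 counts in every library, FOXE1 at least 273 and TG at least 98. By contrast, SLC5A5 had at most 7 counts in any library, and TSHR and NKX2-1 had 0 counts in every library. FOXE1 was called higher at 24 h (log2 fold change 0.84) and TG lower (-1.09), while PAX8 (-0.06) did not pass the cutoffs.

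Of the 38 rows, 27 were tested. The number called higher was 7 and the number called lower was 7, beside 17.4% higher and 17.7% lower among all genes tested. The median log2 fold change of the tested members was 0.01, against 0.0029 for all genes, and it was also 0.01 with ITGB4, the only tested member at or under 3 counts in both libraries of a time point, set at its bound. Among the integrins, 4 of 20 were higher and 6 lower, and among the laminins 3 of 7 were higher and 1 lower. ITGA9 and ITGB4 passed the count filter only through the 24 h libraries and so had to be higher there. Without them, 5 of 25 were higher. The 24 h libraries were both above both 6 h libraries in 12 of the 27 members and both below in 11, while these shares were 41.0% and 40.8% over all genes tested. The 12 include ITGA9 and ITGB4, whose direction was fixed by the filter. With an adjusted P under 0.05 and no cutoff on the fold change, 11 members were higher, again with ITGA9 and ITGB4 among them, and 9 lower. This compares with 33.0% and 32.6% of all genes.

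**Figure D1:**
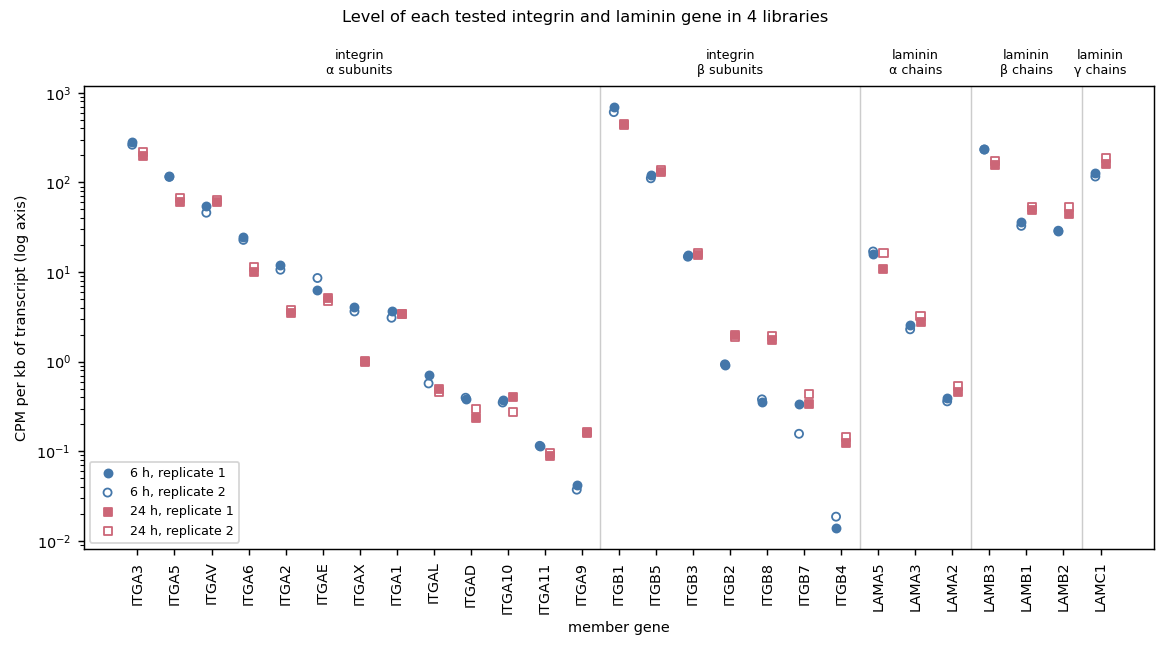
Level of each of the 27 tested members in CPM per kb of transcript (log axis) in the 6 h libraries (blue circles) and the 24 h libraries (red squares), with replicate 1 filled and replicate 2 open, grouped by chain class. ITGB1 had the highest level at both times, ITGB4 the lowest at 6 h, and LAMB3 the highest of the plotted laminin chains at 6 h.

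The laminin chains moved in both directions. LAMB3, the β chain of the epithelial anchoring laminin, fell, whereas LAMB1, LAMB2 and LAMC1, the β and γ chains of laminin-511 and laminin-521, rose. LAMA5, the α chain of laminin-511 and laminin-521, did not pass the cutoffs. The values of LAMB3 and LAMC1 lay just past the cutoffs, and their calls were lost in some alternative fits. The 250 bases before a RefSeq transcript start (GRCh38.p14) are printed for LAMA3 (chr18:23872770-23873019, plus strand) and LAMB3 (chr1:209651375-209651624, minus strand, the start among 3 that holds a match). They are also printed for LAMB1 (chr7:108003162-108003411, minus strand) and LAMC1 (chr1:183023170-183023419, plus strand). A printed start need not be the outermost start of its gene. Capitals mark TGANTCA, the letters bound by AP-1, a factor family downstream of ERK.
LAMA3: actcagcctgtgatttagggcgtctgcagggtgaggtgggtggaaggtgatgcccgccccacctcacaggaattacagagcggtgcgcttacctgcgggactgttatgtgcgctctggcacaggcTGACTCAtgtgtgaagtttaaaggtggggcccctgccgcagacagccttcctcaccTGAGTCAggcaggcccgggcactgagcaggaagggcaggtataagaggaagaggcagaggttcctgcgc
LAMB3: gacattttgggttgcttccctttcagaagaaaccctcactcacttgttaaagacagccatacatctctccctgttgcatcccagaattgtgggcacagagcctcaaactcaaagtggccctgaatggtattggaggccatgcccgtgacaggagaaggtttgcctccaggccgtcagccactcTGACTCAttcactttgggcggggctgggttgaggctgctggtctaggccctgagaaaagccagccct
LAMB1: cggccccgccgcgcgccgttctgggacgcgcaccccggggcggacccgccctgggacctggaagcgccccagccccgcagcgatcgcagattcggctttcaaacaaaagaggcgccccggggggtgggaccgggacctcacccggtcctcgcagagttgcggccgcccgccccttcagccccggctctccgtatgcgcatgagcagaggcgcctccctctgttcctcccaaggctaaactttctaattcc
LAMC1: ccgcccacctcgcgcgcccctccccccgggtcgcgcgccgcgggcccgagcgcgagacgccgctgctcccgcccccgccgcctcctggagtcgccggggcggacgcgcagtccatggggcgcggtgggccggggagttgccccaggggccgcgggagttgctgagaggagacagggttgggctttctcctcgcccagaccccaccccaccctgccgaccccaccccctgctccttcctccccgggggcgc

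The letters TGANTCA, which read the same on both strands, were found in the printed sequences of LAMA3 and LAMB3 and not in those of LAMB1 and LAMC1. The LAMB3 start was picked because it holds a match. No match was found before the other LAMB3 starts or before the start of LAMB2, so the printed sequences alone are not a comparison between genes. In LAMA3 the letters begin at 125 and 69 bases before the start (positions -125 and -69) and in LAMB3 at 67 bases (position -67). Over the members, 2 of 33 sequences from 26 genes held a match, or 6.06%, against 6.57% of all 35116 sequences of this length. The letters GGAATG, searched on both strands and known from TEAD factors, were found in 4 of the 33, or 12.1%, against 11.9% of all. The members' shares were therefore close to those of all sequences. No sequence was matched for ITGA3, ITGA7, ITGA9, ITGAD, ITGAL, ITGAX, ITGB2, ITGB3, ITGB4, LAMA1 and LAMC3.

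The γ1 chain is shared by most laminins. LAMC1 (ENSG00000135862, chr1:182992595-183114727), which encodes γ1, had 24733 and 25150 counts (1021 and 922 CPM) at 6 h and 33029 and 40295 counts (1258 and 1499 CPM) at 24 h, a log2 fold change of 0.50 (SE 0.0902, adjusted P = 2.27e-05). Before rounding this value was 0.505, just above the cutoff. It was 0.38 without 24 h replicate 2, 0.43 without 6 h replicate 2 and 0.46 with library size alone, and the call was lost in each of these fits. The groups did not overlap. LAMC3 had at most 1 count in any library.

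Among the β chains, LAMB3 (ENSG00000196878, chr1:209788215-209825811), which encodes β3, had 24491 and 27322 counts (1011 and 1002 CPM) at 6 h and 17497 and 20005 counts (666 and 744 CPM) at 24 h. Its log2 fold change was -0.51 (SE 0.0815, adjusted P = 4.39e-06), just past the cutoff, and the call was lost without 24 h replicate 1 (-0.43) and with upper quartile scaling (-0.48). LAMB1 (ENSG00000091136, chr7:107564244-107643700), which encodes β1, rose from 4948 and 5049 counts (204 and 185 CPM) to 7383 and 8035 counts (281 and 299 CPM, log2 fold change 0.58, SE 0.0748, adjusted P = 1.89e-07). LAMB2 (ENSG00000172037, chr3:49158547-49170551), which encodes β2, rose from 4000 and 4490 counts (165 and 165 CPM) to 6669 and 8178 counts (254 and 304 CPM, log2 fold change 0.76, SE 0.0799, adjusted P = 4.40e-09). None of these 3 genes had overlapping groups. LAMB3 was the most abundant β chain at both times, with 78.3% and 79.0% of the summed β chain level per kb at 6 h and 62.1% and 61.9% at 24 h. LAMB4, 20292 bases from LAMB1 on chromosome 7, had at most 2 counts in any library. LAMB1 overlaps 7932 bases of DLD, which had between 1497 and 1720 counts, and the strand setting of the counts is not stated, so reads in the overlap could belong to either gene.

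No α chain passed the cutoffs. LAMA5 (α5) was the most abundant per kb, with 16.5 CPM per kb at 6 h and 13.7 at 24 h. It had 183 and 194 CPM at 6 h and 124 and 188 CPM at 24 h, so the groups overlapped. Its log2 fold change was -0.27 (95% interval -0.49 to -0.05, adjusted P = 0.0305). LAMA5 was called lower under the rule of an adjusted P under 0.05 without a fold cutoff. It was also called lower without 24 h replicate 2, where the value was -0.59, the lowest of the alternative fits. The highest was -0.0022, so the size of the LAMA5 change depended on the fit. With DESeq2 and with upper quartile scaling LAMA5 was not lower even at an unadjusted P under 0.05. LAMA3 (α3) had 27.2 and 24.5 CPM at 6 h and 29.8 and 34.4 CPM at 24 h, a log2 fold change of 0.32 (0.13 to 0.50, adjusted P = 0.00311). LAMA2 (α2) had only 95 and 98 counts at 6 h and 119 and 144 at 24 h (0.40, interval 0.07 to 0.73). LAMA1 and LAMA4 had at most 4 counts in any library.

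Relative to each other, the β chains shifted from LAMB3 to LAMB1. The per-kb ratio of LAMB3 to LAMB1 was 6.50 and 7.10 at 6 h and 3.11 and 3.27 at 24 h, 2.13-fold lower. An exact two-sided permutation test of this ratio gave P = 0.333, the smallest value that 2 libraries against 2 allow. The ratio of LAMB2 to LAMB1 was 0.802 and 0.883 at 6 h and 0.897 and 1.01 at 24 h, a difference of 0.18 on the log2 scale beside an SD of 0.11 within a time point. The ratio of LAMA3 to LAMA5, the alternative α chains, was 0.160 and 0.135 at 6 h and 0.257 and 0.197 at 24 h. The α chains were scarce beside the β chains at both times. Their summed level was 19.0 and 19.6 CPM per kb at 6 h and 14.2 and 20.2 at 24 h, while the β chains summed to 13.8 to 17.6 times as much. LAMA3 has a short and a long form, and division by the longest transcript lowers the level of a gene that mostly uses a shorter one.

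**Figure D2:**
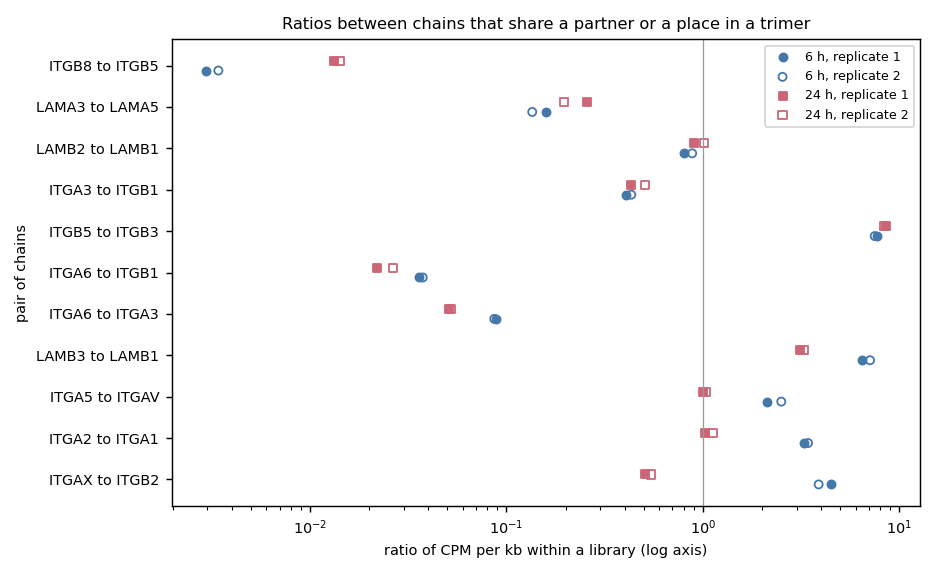
Ratio of the levels per kb of 2 chains within each library (log axis) for 11 pairs, with 6 h libraries as blue circles and 24 h libraries as red squares, replicate 1 filled and replicate 2 open. ITGAX to ITGB2 was above 1 in both 6 h libraries and below 1 in both 24 h libraries, whereas ITGB8 to ITGB5 was higher in both 24 h libraries.

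Of the laminin-binding integrin subunits, ITGA6 (ENSG00000091409, chr2:173292082-173371181), which encodes α6, fell. It had 3502 and 3622 counts (145 and 133 CPM) at 6 h and 1520 and 1798 counts (57.9 and 66.9 CPM) at 24 h, a log2 fold change of -1.15 (SE 0.0779, adjusted P = 6.98e-13). ITGA3 (α3), the most abundant α subunit with 272 CPM per kb at 6 h and 208 at 24 h, had 1369 and 1287 CPM at 6 h and 959 and 1080 CPM at 24 h. Its log2 fold change of -0.38 (95% interval -0.56 to -0.21) did not reach the cutoff, although its groups did not overlap and its adjusted P was 0.000313. Per kb, ITGA6 to ITGA3 had a ratio of 0.0888 and 0.0868 at 6 h and 0.0508 and 0.0521 at 24 h. ITGA6 RNA was thus far less abundant than ITGA3 RNA at both times. ITGA7 had between 3 and 13 counts and was not tested.

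ITGB4 (ENSG00000132470, chr17:73717408-73753899), the β partner of α6 in hemidesmosomes, was scarce at both times. It had 2 and 3 counts at 6 h and 19 and 23 at 24 h, which is at least 6.75-fold higher when both 6 h libraries are set at 3 counts. Its level of 0.134 CPM per kb at 24 h stayed far below that of ITGA6, at 10.7. Like ITGA9, it passed the count filter through the 24 h libraries alone. ITGB4 overlaps 6225 bases of GALK1, which had between 415 and 657 counts and a log2 fold change of 0.41, and the part of GALK1 reads in the ITGB4 count was not tested. ITGB1 (ENSG00000150093, chr10:33189247-33294720), the partner of α3 and α6, fell from 80435 and 79840 counts (3319.7 and 2928 CPM) to 57363 and 56265 counts (2185 and 2093 CPM, log2 fold change -0.55, SE 0.0907, adjusted P = 8.17e-06). Without 6 h replicate 1 the value was -0.45, and the call was lost.

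The summed level of the 12 α subunits that can pair with β1 was 0.714 and 0.758 of the ITGB1 level at 6 h and 0.736 and 0.852 at 24 h, per kb. The ratio of ITGA6 alone to ITGB1 was 0.0360 and 0.0375 at 6 h and 0.0219 and 0.0264 at 24 h, and that of ITGA3 was 0.406 and 0.432 at 6 h and 0.432 and 0.507 at 24 h. The receptor and the ligand of the epithelial anchoring system can be set side by side. LAMB3 on the ligand side and ITGA6 and ITGB1 on the receptor side were lower at 24 h. The call of ITGA6 was kept in every alternative fit, whereas those of LAMB3 and ITGB1 were lost in some. ITGB1 also serves most other α subunits. LAMA3, the α chain on the ligand side, had a log2 fold change of 0.32 and ITGA3 had -0.38, and neither passed the cutoffs. The direction of ITGB4, the partner of α6 in hemidesmosomes, was not open to the test. A joint fall of the system is thus not shown.

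Of the 4 collagen receptor subunits, 1 fell and 3 did not pass the cutoffs. ITGA2 (ENSG00000164171), which encodes α2, fell from 2266 and 2270 counts (93.5 and 83.3 CPM) to 716 and 803 counts (27.3 and 29.9 CPM, log2 fold change -1.63, SE 0.0790, adjusted P = 5.66e-16). ITGA1 (α1) had 39.3 and 33.2 CPM at 6 h and 36.5 and 36.4 CPM at 24 h, and its log2 fold change was 0.01 (95% interval -0.16 to 0.18). The per-kb ratio of ITGA2 to ITGA1 was 3.26 and 3.43 at 6 h and 1.02 and 1.12 at 24 h. Per kb, ITGA2 RNA thus exceeded ITGA1 RNA clearly at 6 h and by little at 24 h. The ratio of counts at 24 h was 0.748 and 0.821, so the order of the 2 genes at 24 h depended on the transcript lengths used. ITGA1 and ITGA2 lie 30115 bases apart in hg19, at chr5:52083730-52255040 and chr5:52285156-52390609, with 0 genes of the table between them. ITGA1 spans 16107 bases of PELO, which had between 1064 and 1278 counts and a log2 fold change of 0.11, so its count is uncertain without the strand. ITGA10 and ITGA11 had between 24 and 54 counts and log2 fold changes of -0.09 (interval -0.59 to 0.40) and -0.31 (-0.91 to 0.29).

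Among the RGD receptors, the fibronectin receptor subunit ITGA5 (ENSG00000161638, chr12:54789045-54813244) fell from 12029 and 13350 counts (496 and 489.7 CPM) to 6745 and 7620 counts (257 and 284 CPM, log2 fold change -0.87, SE 0.0765, adjusted P = 1.54e-10). ITGAV (αV) had 388 and 323 CPM at 6 h and 425 and 452 CPM at 24 h, a log2 fold change of 0.30 (95% interval 0.13 to 0.47, adjusted P = 0.00252). At 6 h the levels were 117 and 115 CPM per kb for ITGA5 and 55.1 and 45.9 for ITGAV, and at 24 h they were 60.5 and 66.7 for ITGA5 and 60.3 and 64.2 for ITGAV. The excess of α5 over αV at 6 h was thus not seen at 24 h, when the libraries of the 2 genes overlapped. ITGA8 had 0 counts in every library and ITGA2B between 4 and 10.

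Among the β partners of αV, ITGB8 rose and ITGB3 and ITGB5 did not pass the cutoffs. ITGB8 (ENSG00000105855, chr7:20370325-20455377), which encodes β8, a receptor of latent TGFβ, had 77 and 93 counts at 6 h and 413 and 466 at 24 h. This is a rise from 3.18 and 3.41 CPM to 15.7 and 17.3 CPM (log2 fold change 2.32, SE 0.130, adjusted P = 1.20e-14), and the groups lay far apart. ITGB5 (β5), the main partner per kb, had 533 and 494 CPM at 6 h and 585 and 605 CPM at 24 h (0.21, interval 0.05 to 0.37), and ITGB3 (β3) had 92.2 and 88.1 CPM at 6 h and 91.1 and 96.5 CPM at 24 h (0.06, interval -0.09 to 0.20). The per-kb ratio of ITGB8 to ITGB5 was 0.00295 and 0.00342 at 6 h and 0.0133 and 0.0142 at 24 h, and that of ITGB5 to ITGB3 was 7.74 and 7.50 at 6 h and 8.60 and 8.39 at 24 h. ITGB8 remained scarce, at 1.84 CPM per kb at 24 h, against 134 for ITGB5. ITGB6 had between 7 and 10 counts and was not tested.

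**Figure D3:**
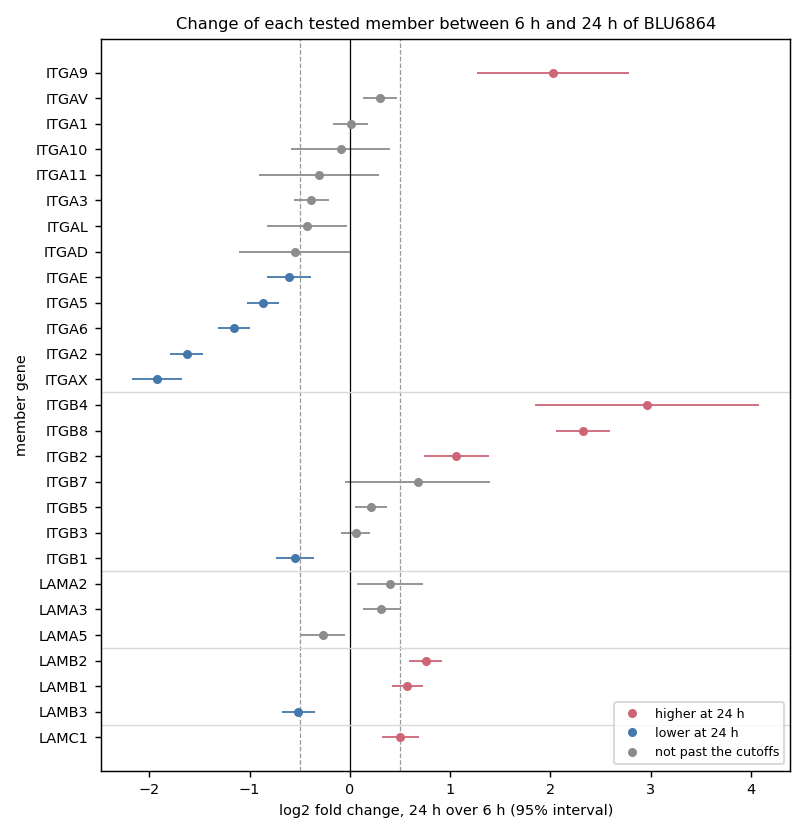
Log2 fold change of each tested member, 24 h over 6 h, with its 95% interval. Red points were called higher, blue points lower and grey points did not pass the cutoffs, which the dashed lines mark at 0.5 and -0.5. ITGB4 and ITGA9, with few counts at 6 h, have the widest intervals, and LAMC1 and LAMB3 lie next to the dashed lines.

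ITGA9 (ENSG00000144668, chr3:37493606-37865005), which encodes α9, a receptor of tenascin and other matrix proteins, had 8 counts in each 6 h library and 33 and 35 at 24 h. It passed the count filter through the 24 h libraries alone, so its direction was not open to the test, and the counts are given as a description. ITGA4 had at most 4 counts in any library. The subunits known from white blood cells were present at low levels. ITGAX (ENSG00000140678, chr16:31366455-31394318), which encodes αX, fell from 462 and 462 counts (19.1 and 16.9 CPM) to 123 and 129 counts (4.69 and 4.80 CPM, log2 fold change -1.92, SE 0.120, adjusted P = 1.19e-13). ITGB2 (ENSG00000160255, chr21:46305868-46351904), the β partner of αX, αL, αM and αD, rose from 70 and 81 counts (2.89 and 2.97 CPM) to 165 and 161 counts (6.28 and 5.99 CPM, log2 fold change 1.06, SE 0.158, adjusted P = 1.55e-06). Per kb, the ratio of ITGAX to ITGB2 was 4.50 and 3.89 at 6 h and 0.508 and 0.546 at 24 h, 7.94-fold lower. ITGAX thus exceeded its partner at 6 h and not at 24 h.

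ITGAE (ENSG00000083457, chr17:3617922-3704537), which encodes αE, the partner of β7 and a receptor of E-cadherin, fell from 585 and 890 counts (24.1 and 32.6 CPM) to 508 and 484 counts (19.4 and 18.0 CPM, log2 fold change -0.61, SE 0.108, adjusted P = 1.95e-05). The 6 h libraries differed from each other, and without 6 h replicate 2 the value was -0.37 and the call was lost. ITGAE overlaps 2857 bases of GSG2, the gene of the mitotic kinase haspin, which went from 181 and 184 counts at 6 h to 29 and 26 at 24 h, and its part in the fall was not tested. ITGB7 had 23 and 12 counts at 6 h and 25 and 33 at 24 h (0.68, interval -0.04 to 1.40), and it was called higher only without 6 h replicate 1, at 1.30. ITGAL and ITGAD had log2 fold changes of -0.43 (-0.82 to -0.03) and -0.55 (-1.11 to 0.01), with at most 89 counts in a library, and ITGAM had between 2 and 8 counts.

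Of 9 white blood cell markers, 4 had more than 3 counts in every library, and their list summed to 6.79 and 8.67 CPM at 6 h and 5.64 and 5.80 CPM at 24 h. The defining marker PTPRC had at most 5 counts in any library, and CD3E, CD52 and TYROBP had at most 1. CORO1A and LCP1 fell (log2 fold changes -1.83 and -1.13) and CD14 rose (0.95), in the directions of ITGAX and ITGB2 respectively, and their part in those changes was not tested. Endothelial markers summed to at most 0.991 CPM in any library, and the 6 fibroblast markers to 23.4 and 24.1 CPM at 6 h and 9.79 and 11.2 CPM at 24 h, with COL1A2 at 0 in every library. Among these fibroblast markers COL1A1 and PDGFRB fell (log2 fold changes -1.57 and -1.48), while LUM rose, from 39 and 40 counts to 71 and 66 (0.75). Of 6 epithelial markers, 4 had more than 3 counts in every library, while EPCAM and CDH1, the gene of the αE ligand E-cadherin, had at most 11 and 8 counts. KRT8 and KRT18 had at least 1720 and 856 counts in every library and did not pass the cutoffs. KRT7 rose (log2 fold change 0.84) and KRT19 fell (-1.59).

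Genes of the integrin adhesion complex, which couples integrins to actin, were called higher more often than lower. Of the 40 genes, 38 were tested, and 20 rose and 3 fell, with a median log2 fold change of 0.53 against 0.0029 for all genes. These counts compare with 17.4% higher and 17.7% lower among all genes tested. LIMS2 had 7 and 3 counts at 6 h and 24 and 27 at 24 h, and passed the count filter through the 24 h libraries alone, so its direction was not open to the test. Without it, a choice made after the values were seen, 19 of 37 rose and 3 fell, with a median of 0.52. The largest rises among these 37 were those of PTK2B, TLN2 and TNS1, with log2 fold changes of 1.88, 1.62 and 1.59. PTK2B, a kinase related to focal adhesion kinase, went from 116 and 140 counts to 500 and 472. TLN2, a talin that binds the tails of β subunits, went from 613 and 710 to 2006 and 2189.

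The 3 genes that fell were LPXN (-1.37), CIB1 (-0.63) and ITGB1BP1 (-0.61), and CIB1 and ITGB1BP1 encode proteins that bind integrin tails. Named in addition, after their values were seen, TLN1 rose by 0.79 and VCL, which encodes vinculin, by 0.73 on the log2 scale, while FERMT2 and ILK each had 0.09 and did not pass the cutoffs. ITGB1, the most abundant β subunit (-0.55), and ITGA5 (-0.87) fell in the same libraries in which TLN1 and VCL rose. The ITGB1 call was lost without 6 h replicate 1. ITGAV (0.30) and ITGB5 (0.21) did not pass the cutoffs, although for each of them the 24 h libraries were both above both 6 h libraries.

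Other ligands moved in both directions, with 9 of 23 tested higher and 6 lower and a median of 0.37, beside 17.4% higher and 17.7% lower among all genes tested. COL4A4 (6 and 5 counts at 6 h, 17 and 30 at 24 h) and COL4A6 (18 and 31 at 6 h, 6 and 3 at 24 h) each passed the count filter through a single time point, so their directions were not open to the test. Without this pair, again a choice made after the values were seen, 8 of 21 were higher and 5 lower, with the same median of 0.37. THBS1, which encodes thrombospondin-1, rose most, from 518 and 532 counts to 18173 and 21442 (log2 fold change 5.19, SE 0.0995, adjusted P = 1.93e-24). NID2 (1.79) and SPP1 (1.69), the gene of osteopontin, followed. SPP1, a ligand of αV and α9 integrins, reached 1667 CPM per kb at 24 h from 517 at 6 h. Without COL4A6, the falls were led by COL1A1 (-1.57), which is also among the fibroblast markers, VCAM1 (-1.49), a ligand of α4 and α9 integrins, and LTBP1 (-1.32), which holds latent TGFβ in the matrix.

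Ligands of the called receptors were also looked up after the values were seen. FN1, the ligand of α5β1, had 207692 and 226535 counts at 6 h and 236722 and 343218 after 24 h. The change of 0.37 on the log2 scale (SE 0.119, adjusted P = 0.00883) did not reach the cutoff, whereas ITGA5 fell. This value for FN1 depended on the 24 h libraries, and it was 0.60 and called higher without 24 h replicate 1 and 0.10 without 24 h replicate 2. COL4A1 and COL4A2, the main collagen IV chains of basement membranes and ligands of α1 and α2, overlap in the table's positions. They rose with log2 fold changes of 1.60 and 1.24, whereas ITGA2 fell and ITGA1 did not pass the cutoffs. The other collagen genes of the ligand list with a direction open to the test went both ways. COL1A1 fell (-1.57), COL7A1 rose (1.15) and COL4A5 (-0.04) did not pass the cutoffs. TGFB1, the latent form of whose product is bound by αVβ8, had a log2 fold change of -0.02 and did not pass the cutoffs, whereas ITGB8 rose.

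Of the 10 hemidesmosome and laminin coreceptor genes tested, 4 rose and 3 fell, with a median of 0.23, beside 17.4% higher and 17.7% lower among all genes tested. BCAM, a receptor of laminin α5 outside the integrin family, rose from 3165 and 3132 counts to 11697 and 12172 (log2 fold change 1.87, SE 0.0789, adjusted P = 2.66e-17). NTN4 (1.61), a netrin that binds the laminin network, SDC4 (1.14) and PLEC (0.83) rose as well. SDC1, a heparan sulfate proteoglycan, fell from 13027 and 13697 counts to 1546 and 1545 (-3.16, SE 0.0807, adjusted P = 3.80e-22), and COL17A1 and DST, which encode parts of the hemidesmosome, fell by 2.99 and 0.98 on the log2 scale. Of the hemidesmosome genes named here, COL17A1 and DST were thus lower and PLEC higher.

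**Figure D4:**
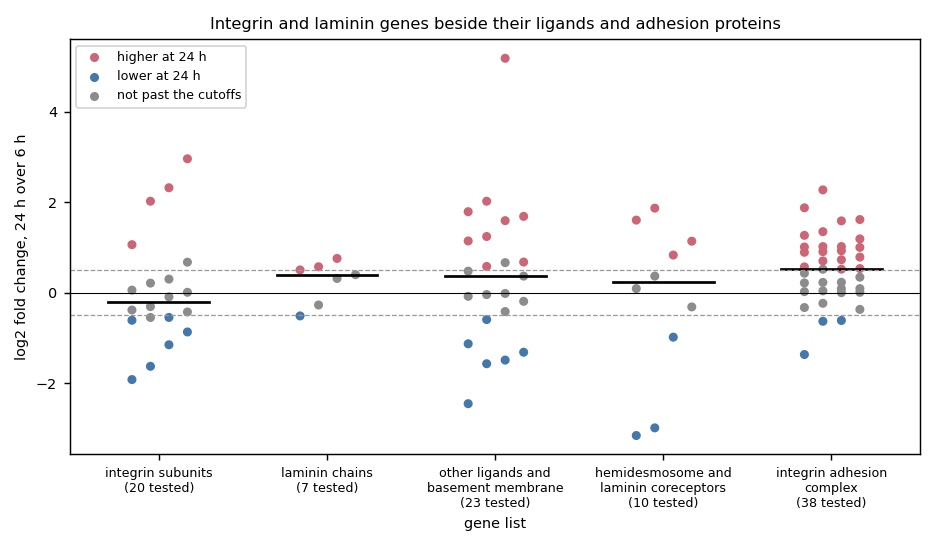
Log2 fold change, 24 h over 6 h, of each tested integrin subunit and laminin chain and of the genes of 3 related lists, with the median of each list as a black bar and the cutoffs of 0.5 and -0.5 as dashed lines. Red points were called higher, blue points lower and grey points neither. The median was -0.20 for the integrin subunits, 0.40 for the laminin chains, 0.37 for other ligands, 0.23 for the hemidesmosome and coreceptor list and 0.53 for the adhesion complex.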

How the data were processed

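The 4 libraries of TPC1 cells were analysed from a single deposited table. The authors aligned the reads with STAR (2.3 in the submitters' processing notes, where the build is hg19, and a later version in the methods) and deposited the raw count of reads per gene, not normalized. The counting program and strand setting are not given in the sources used here. The deposited table also holds a normalized signal (the count divided by a size factor of the library), and a DESeq2 log2 fold change, Wald score and p-value per gene, none of which was used. The number of columns of per-sample values that belong to no sample here was 0.

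The quasi-likelihood test of edgeR 4.0.16 (R 4.3.3) was run over all genes that passed filterByExpr (12876 of 20372, holding 99.97% of the counts), with TMM scaling and time as the single factor. Each SE is the absolute log2 fold change over the root of the F statistic. Cutoffs followed the methods, applied in both directions. Members and lists were chosen with earlier results of these data known, and so were the 11 pairs of chains. Some genes that the rule and the lists cover are not reported here. Of the other lists, the 4 largest rises and the 4 largest falls past the cutoffs are named, and a gene that passed the count filter through a single time point is given by its counts. The lists were matched by symbol, and TNS2 by identifier, and PECAM1 was not matched. Transcript lengths came from GENCODE 44, for 37 of 38 rows. Positions follow the table, and only 3.94% of gene starts lie within 1000 bases of those on hg38, so builds were not mixed. Promoter sequences are those of RefSeq, GRCh38.p14, matched by symbol for 26 members. The procedure was tested on simulated data. Counting error and library spread enter the P values together. Figures used matplotlib 3.10.9 (Python 3.11.15). Alternatives were DESeq2 1.42.0, 2 other scalings, 2 other filters on low counts, the replicate number as a block, another threshold, and each library left out. After the values were seen, the list counts were also taken without genes under 10 counts in both libraries of a time point.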

Additional observations from a re-analysis of the deposited data

How the results depend on the processing

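No member with a call changed direction under the alternatives run (DESeq2, 2 other scalings, 2 other filters, the replicate block and each library left out). Over 268 refits of the log2 fold change of a tested member, the side of the cutoffs was kept in 259, lost in 7 (LAMC1, LAMB3, ITGB1 and ITGAE) and gained in 2 (LAMA5 and ITGB7). With an adjusted P under 0.05 and no fold cutoff, the members called higher were 11 in place of 7 and lower 9 in place of 7. The laminin chains called higher were 5 in place of 3 and lower 2 in place of 1. The adhesion complex genes called higher were 26 in place of 20 and lower 6 in place of 3. Among all genes tested, this rule called 33.0% higher and 32.6% lower. With at least 10 counts required in every library, 2 integrin subunits were called higher in place of 4, since ITGA9 and ITGB4 were then not tested. With upper quartile scaling edgeR called 0 laminin chains lower in place of 1 (LAMB3), while 1 was lower at an unadjusted P under 0.05 and DESeq2 called 1. Over the fits with a single library removed this number was between 0 (without 24 h replicate 1) and 2 (without 24 h replicate 2, with LAMA5). When 1 library was left out, the lone library of that time point was assumed to vary like the other group. The replicate numbers 1 and 2 occur at both times, but nothing states what they mark, and deviations of same-numbered libraries correlated at 0.0844 across genes. With the replicate block, 7 members were called higher and 7 lower. All scalings moved the median of all genes by less than 0.1. With 2 libraries per time point, subunit ratios cannot reach an exact P under 0.333, and members under 10 counts gave wide intervals or no test.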
